A study of Mus musculus with 48 samples.

Results

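The microglial genes described here were 34 genes known to mark or to act in microglia, taken by symbol from the Ensembl gene IDs of the RNA count tables, which held 47729 IDs in whole CA RNA. All 34 were found in the tables, and all 34 passed the filter on low counts in whole CA RNA. They were grouped by role as surface receptors of resting microglia, cytokine receptors, complement C1q chains, and genes of ITAM and Fc receptor signalling. The other groups were lysosomal and phagocytic proteins, leukocyte surface proteins, transcription factors, and secreted proteins or enzymes. The question asked of the 34 members was whether they shifted together between the genotypes or whether only some of them did.

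The samples came from adult C57BL/6J mice of 4 to 6 months, labelled either Setd1b cKO (conditional knockout) or Control. Setd1b encodes an enzyme that methylates lysine 4 of histone H3. Whole CA RNA, from the CA region of the hippocampus, was sequenced in 6 cKO and 6 control libraries, as labelled, and neuron RNA from the same region in 3 of each. H3K4me3, a mark of active gene starts, was profiled by ChIP-seq in sorted neuronal nuclei, in 4 libraries of each genotype. The labels do not name the promoter that drives Cre. The published line deletes Setd1b in excitatory forebrain neurons through a Camk2a promoter, which is background and was not measured here. The labels do not say that the libraries of a group came from separate animals, so p-values measure the spread between libraries, which may be technical.

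Microglia are the resident macrophages of the brain. They depend on signalling through the receptor CSF1R, carry purine and chemokine receptors with which they survey the tissue, and are the main source of C1q in the brain. In the hippocampus they are known for the removal of synapses through complement, and on activation they lose resting receptors and gain phagocytic and lysosomal genes.

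Whole CA libraries held 14.9 to 20.1 M counted reads and neuron libraries 55.7 to 69.1 M. As labelled, cKO did not have the lower Setd1b counts. In whole CA RNA it averaged 39.6 ± 8.67 CPM (SD, n = 6) in the controls as labelled, where CPM is the read count scaled to library depth with TMM factors, and 59.3 ± 6.27 CPM (SD, n = 6) in cKO. These counts cover the whole gene and cannot show the loss of single exons, so each genotype named below is that of the label. Replicates 1 to 3 of whole CA RNA were sequenced in lane 1 and replicates 4 to 6 in lane 2, per the file names. Each lane held 3 libraries of each genotype.

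The start regions of these genes are shown first, because they bear on whether the neuronal histone data can report on them. The 250 bases before the start were read from RefSeq (GRCm38.p6) for 26 of the 34 members. Among them, 17 members (65.4%) held the letters GAGGAA on either strand, the core of the sites bound by PU.1, the myeloid factor encoded by Spi1. Of all 17491 protein-coding genes with a start in that table, 22.1% did. The longer string GAGGAAGT, which contains the shorter one, was found in 3 members (11.5%), C1qc, Inpp5d and Hpgds, against 2.18% of all genes. Matches are letters and not tested binding sites. The following sequences are the 250 bases before the starts of C1qb (chr4:136886201-136886450, minus strand), C1qc (chr4:136892915-136893164, minus strand), Inpp5d (chr1:87620062-87620311, plus strand) and Hpgds (chr6:65144731-65144980, minus strand). They run 5′ to 3′ on the strand of the gene, with GAGGAA or its reverse complement in capitals.
C1qb: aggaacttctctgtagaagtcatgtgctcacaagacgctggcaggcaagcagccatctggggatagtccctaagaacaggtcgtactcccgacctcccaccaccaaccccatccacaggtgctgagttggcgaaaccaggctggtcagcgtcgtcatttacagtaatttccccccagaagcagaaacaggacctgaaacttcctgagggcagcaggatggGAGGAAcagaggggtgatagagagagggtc
C1qc: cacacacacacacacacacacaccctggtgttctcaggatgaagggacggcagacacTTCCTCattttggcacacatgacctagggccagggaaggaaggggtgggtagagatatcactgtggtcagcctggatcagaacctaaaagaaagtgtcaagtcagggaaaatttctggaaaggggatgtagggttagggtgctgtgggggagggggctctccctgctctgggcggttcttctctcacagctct
Inpp5d: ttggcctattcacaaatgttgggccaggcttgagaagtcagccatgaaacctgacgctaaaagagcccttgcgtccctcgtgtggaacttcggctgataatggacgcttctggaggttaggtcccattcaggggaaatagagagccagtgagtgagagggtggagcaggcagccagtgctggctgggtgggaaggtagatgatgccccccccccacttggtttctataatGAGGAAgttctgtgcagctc
Hpgds: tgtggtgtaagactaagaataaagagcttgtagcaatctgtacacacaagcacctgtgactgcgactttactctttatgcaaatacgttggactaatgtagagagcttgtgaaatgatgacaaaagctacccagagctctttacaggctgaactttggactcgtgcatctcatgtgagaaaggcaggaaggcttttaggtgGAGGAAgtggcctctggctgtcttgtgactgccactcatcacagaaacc

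The starts also held few CG pairs. The median was 4 CG pairs in 250 bases over the 26 members and 10 over all protein-coding genes. Cx3cr1 (chr9:120068297-120068546, minus strand) held 4 and Irf8 (chr8:120736108-120736357, plus strand) held 29, the highest count among the members at the first listed start. At other listed starts counts differed, up to 30 at a further start of Sall1. Both are shown 5′ to 3′ with every CG pair in capitals, as examples of a CG-poor and a CG-rich start.
Cx3cr1: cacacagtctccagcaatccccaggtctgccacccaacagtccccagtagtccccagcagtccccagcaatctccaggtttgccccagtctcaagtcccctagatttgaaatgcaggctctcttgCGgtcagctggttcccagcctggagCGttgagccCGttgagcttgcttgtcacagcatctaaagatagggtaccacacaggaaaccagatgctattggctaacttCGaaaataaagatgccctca
Irf8: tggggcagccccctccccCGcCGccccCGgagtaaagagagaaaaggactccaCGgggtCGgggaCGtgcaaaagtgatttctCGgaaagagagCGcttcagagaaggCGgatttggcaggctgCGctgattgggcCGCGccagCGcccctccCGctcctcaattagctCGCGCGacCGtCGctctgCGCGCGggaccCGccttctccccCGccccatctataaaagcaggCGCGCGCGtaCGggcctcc

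In whole CA RNA the microglial genes were shifted slightly and mostly in the same direction. The log2 fold change (labelled cKO over labelled control) was negative for 29 of 34 members and positive for 5. The median was −0.18, a difference of −11.7%, with quartiles of −0.25 and −0.09. Over all 15362 genes tested the median was −0.0027, and 50.8% were negative. Only Cx3cr1 passed the edgeR quasi-likelihood test at an adjusted p under 0.05, and it was lower. Over all genes the test called 4.17% in either direction and 2.79% as lower, so 1 of 34 members is near that background. At an adjusted p under 0.1, 5 members were lower (Cx3cr1, C1qb, Csf1r, P2ry12 and Gpr34), where 3.8% of all genes were. At an unadjusted p under 0.05, 11 members were lower and 0 higher, and 8.52% of all genes were lower by that rule. For 0 of the 34 members did the groups fail to overlap with cKO lower, against 1.93% of all genes.

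**Figure D1:**
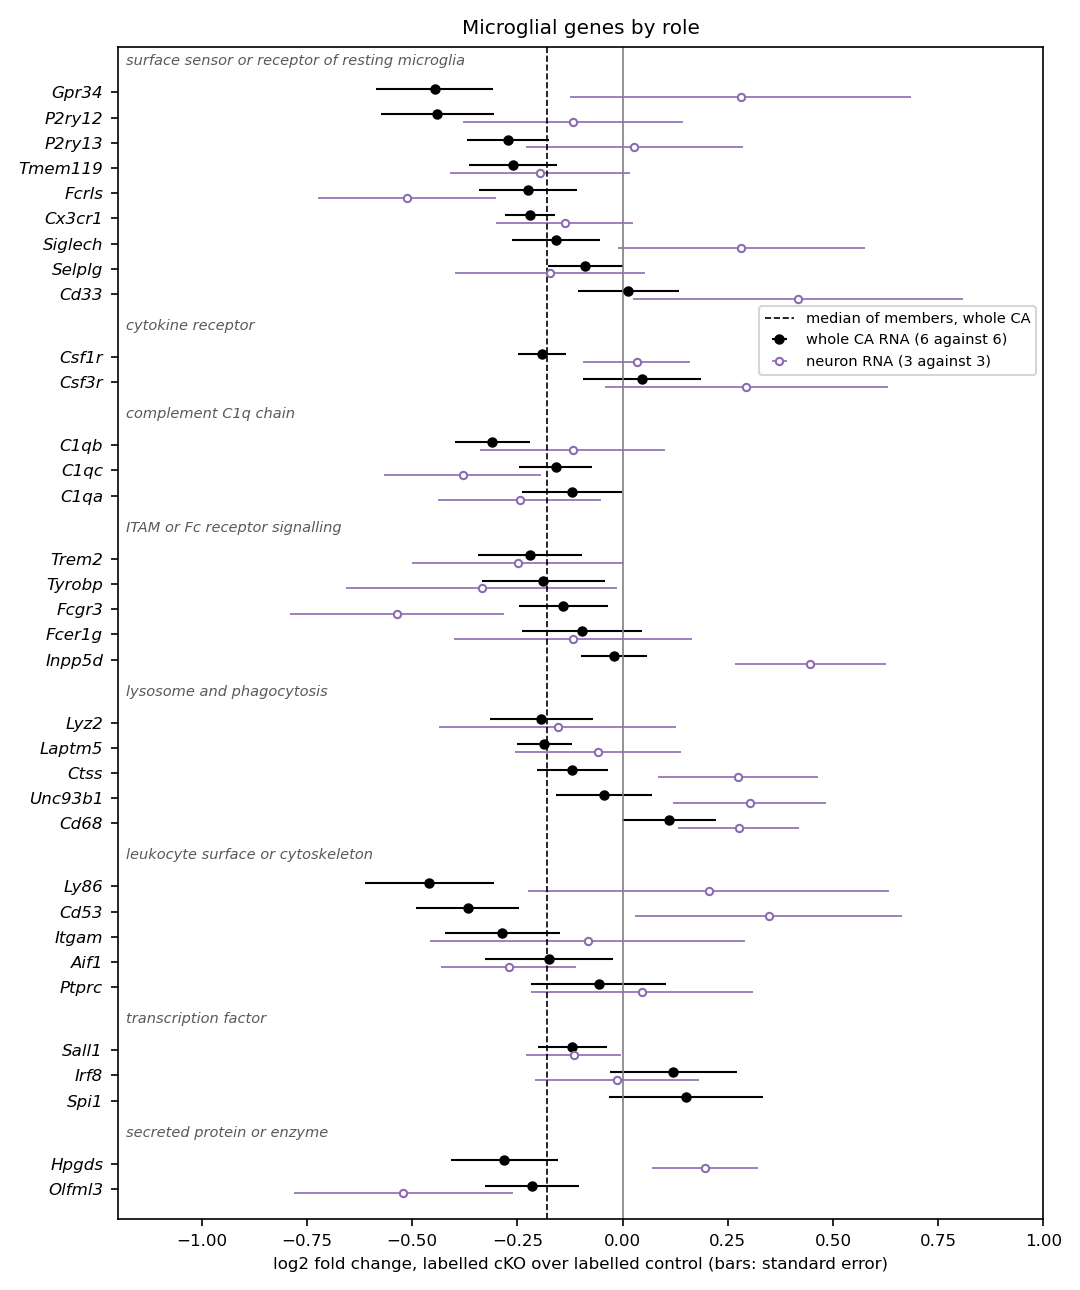
Log2 fold change (x axis, libraries labelled cKO over libraries labelled control) of the 34 microglial genes, grouped by role, with bars for the standard error. Filled points are whole CA RNA (6 against 6 libraries) and open points neuron RNA (3 against 3; Spi1 was not tested there). The dashed line is the whole CA median of −0.18; 29 filled points lie below 0.

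Most estimates lay close to the members' median when set against the standard error of each single gene. Standard errors ran from 0.06 for Csf1r to 0.18 for Spi1, with a median of 0.12. The estimates of 32 members lay within 2 standard errors of the members' median of −0.18. The other two were Cd68 at 0.11 and Inpp5d at −0.02, both less negative than that median. The estimates of 12 members lay more than 2 standard errors below 0, and those of 0 members as far above it. At this spread between libraries, most single members lay within 2 standard errors of both the common median and 0. All members were measured in the same 12 libraries, so these are not the errors of a difference between members. Whether the members shifted by the same amount was not tested.

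Of the 9 surface receptors of resting microglia, 8 had a negative log2 fold change, 5 of the 11 members at an unadjusted p under 0.05 were among them, and their median was −0.22. Cx3cr1, the receptor for the neuronal chemokine fractalkine, ranged from 62.5 to 72.1 CPM in libraries labelled control (median 67.9). It ranged from 52.2 to 63.3 CPM in libraries labelled cKO (median 59.1). The ranges overlapped through a single pair, since the highest cKO library, replicate 2, lay just above the lowest control library, also replicate 2. Means were 67.8 ± 3.58 and 58.2 ± 4.23 CPM (SD, n = 6 each), with a log2 fold change of −0.22 (SE 0.06, adjusted p 0.0434, edgeR). Its call was kept in 1 of 12 fits that each left out 1 library, the one without cKO replicate 2. In the other 11 its adjusted p ran up to 0.133, at a log2 fold change of −0.19 to −0.24 over all 12. It was also not called by edgeR with a replicate block (adjusted p 0.0632), with no filter on low counts (0.103), with scaling by library size only (0.0831) or within either lane (0.366 and 0.331).

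P2ry12, the ADP receptor that guides microglial processes, ranged from 44.5 to 69.4 CPM in libraries labelled control (median 55.0) and from 25.7 to 54.4 CPM in libraries labelled cKO (median 41.8). The lowest value was that of cKO 4 and the highest that of control 6, and the groups overlapped. The log2 fold change was −0.44 (SE 0.13, adjusted p 0.0787, edgeR). Gpr34, a receptor for lysophosphatidylserine, ranged from 14.2 to 20.7 CPM (median 16.5) and from 7.76 to 15.6 CPM (median 12.7) in the same order. Here too cKO 4 was lowest, and the log2 fold change was −0.45 (SE 0.14, adjusted p 0.0860, edgeR). P2ry12 and P2ry13 lie within the span of the gene Med12l, and Gpr34 lies within that of Cask, on GRCm38.p6. The strand setting of the counting is not given in the sources used here, so reads shared with these host genes cannot be told apart. The hosts themselves had log2 fold changes of 0.05 (Med12l) and 0.05 (Cask), with edgeR adjusted p of 0.814 and 0.737.

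P2ry13, a second ADP receptor, ranged from 15.5 to 20.8 CPM (median 18.2) in libraries labelled control and from 12.5 to 17.01 CPM (median 14.97) in those labelled cKO. On the log2 scale the difference was −0.27 (SE 0.10, adjusted p 0.149, edgeR). Tmem119, a surface protein used to tell microglia from other macrophages, ranged from 18.7 to 25.1 CPM (median 19.2) and from 13.01 to 20.06 CPM (median 16.7), with a log2 fold change of −0.26 (SE 0.10, adjusted p 0.214, edgeR). The groups overlapped for both. The remaining 4 receptors were Fcrls (−0.22), Siglech (−0.16), Selplg (−0.09) and Cd33 (0.01), with adjusted p of 0.374 to 0.973. Cd33, a sialic acid receptor, was the one receptor of this class with no negative estimate, and its libraries labelled cKO were spread from 9.22 to 16.3 CPM against 11.1 to 12.2 CPM in libraries labelled control.

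The cytokine receptors were 2 genes, and the difference between them was not tested. Csf1r, on which microglial survival depends, ranged from 102.2 to 118.5 CPM (median 108.9) in libraries labelled control and from 87.8 to 104.6 CPM (median 95.1) in libraries labelled cKO. The cKO library in lane 2 with the highest value, replicate 4, overlapped control 4 and 5. The log2 fold change was −0.19 (SE 0.06, adjusted p 0.0692, edgeR), the smallest standard error of all members. Csf3r, the receptor for granulocyte colony-stimulating factor, had a log2 fold change of 0.05 (SE 0.14, adjusted p 0.926, edgeR).

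**Figure D2:**
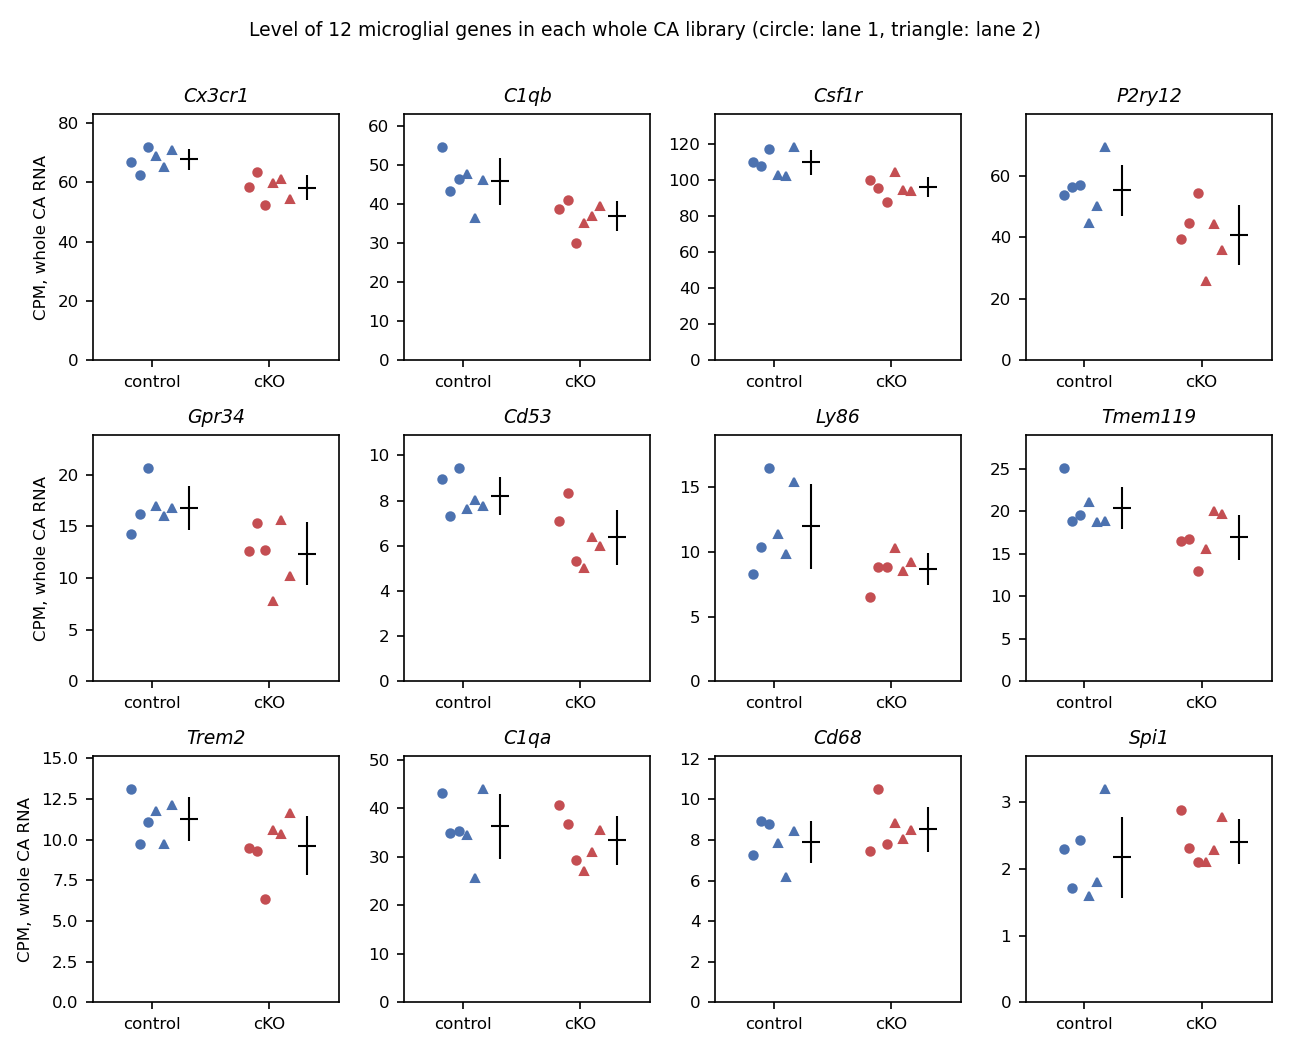
CPM (y axis, from 0) of 12 microglial genes in each whole CA RNA library, with libraries labelled control in blue and those labelled cKO in red; circles are lane 1, triangles lane 2, and black marks the mean with SD (n = 6). Cx3cr1 and Csf1r show the tightest groups, and the groups overlap in all 12 panels.

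The 3 chains of C1q, the protein that starts the classical complement cascade and tags synapses for removal, were all negative, with a median of −0.16. C1qb ranged from 36.4 to 54.8 CPM (median 46.4) in libraries labelled control and from 30.2 to 41.0 CPM (median 37.9) in libraries labelled cKO. The overlap came from control 5, which lay below 4 of the cKO libraries. The log2 fold change of C1qb was −0.31 (SE 0.09, adjusted p 0.0595, edgeR), and it was called in 1 of 12 fits that each left out 1 library. Without control 5 it was −0.36 (edgeR adjusted p 0.0161), and over the other fits it ran to −0.25 and the adjusted p to 0.114. C1qc, with 21.2 to 29.6 CPM (median 25.6) and 20.6 to 25.1 CPM (median 24.2), had a log2 fold change of −0.16 (SE 0.09, adjusted p 0.407, edgeR). C1qa, with 25.7 to 44.1 CPM (median 35.1) and 27.2 to 40.6 CPM (median 33.2), had −0.12 (SE 0.12, adjusted p 0.708, edgeR). Control 5 was the lowest control library for all 3 chains. The chains form 1 protein complex from neighbouring genes, and the differences among them were not tested.

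The ITAM and Fc receptor signalling group held the receptor genes Trem2 and Fcgr3, the adaptor genes Tyrobp and Fcer1g, and Inpp5d. All 5 were negative, with a median of −0.14 and 0 at an unadjusted p under 0.05. Trem2, the lipid receptor needed for the phagocytic state, ranged from 9.72 to 13.1 CPM (median 11.4) and from 6.36 to 11.7 CPM (median 9.93), with a log2 fold change of −0.22 (SE 0.12, adjusted p 0.431, edgeR). Trem2 and Tyrobp were both lowest in cKO 3. Tyrobp stood at −0.19 and Fcgr3, an IgG receptor, at −0.14. Fcer1g stood at −0.10 and Inpp5d, the phosphatase SHIP1 that dampens these receptors, at −0.02, with adjusted p of 0.594 to 0.941 for these 4. In lane 1 only 2 of the 5 were negative, against 5 of 5 in lane 2.

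Among the 5 lysosomal and phagocytic genes, 4 were negative and the median was −0.12. Laptm5, a lysosomal membrane protein, ranged from 33.01 to 41.69 CPM (median 37.1) and from 30.6 to 34.9 CPM (median 33.4), with a log2 fold change of −0.19 (SE 0.07, adjusted p 0.141, edgeR). Lyz2, encoding lysozyme, stood at −0.19, Ctss, encoding the protease cathepsin S, at −0.12, and Unc93b1, which carries endosomal Toll-like receptors, at −0.04. Cd68, a lysosomal protein that rises in phagocytic microglia, ranged from 6.16 to 8.93 CPM (median 8.13) in libraries labelled control and from 7.45 to 10.5 CPM (median 8.28) in those labelled cKO. On the log2 scale the difference was 0.11 (SE 0.11, adjusted p 0.721, edgeR), and it was positive in both lanes (0.04 and 0.19).

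The leukocyte surface group was negative for 5 of 5 members, with the lowest median of the groups of 3 or more, −0.29. Ly86, the partner of the Toll-like receptor homologue RP105, ranged from 8.29 to 16.5 CPM (median 10.9) and from 6.51 to 10.3 CPM (median 8.81). Controls 3 and 6 were high and the other controls lay close to the libraries labelled cKO. The log2 fold change was −0.46 (SE 0.15, adjusted p 0.114, edgeR), the most negative of all members. Cd53, a tetraspanin, ranged from 7.33 to 9.46 CPM (median 7.89) and from 5.03 to 8.35 CPM (median 6.20), with −0.37 (SE 0.12, adjusted p 0.114, edgeR). Itgam, the complement receptor subunit CD11b, ranged from 5.38 to 9.91 CPM (median 7.93) and from 5.16 to 7.32 CPM (median 6.55), with −0.29 (SE 0.14, adjusted p 0.319, edgeR). Aif1, which encodes the cytoskeletal protein IBA1 stained in most counts of microglia, ranged from 4.27 to 5.93 CPM (median 5.02) and from 2.99 to 6.06 CPM (median 4.42), with −0.17 (SE 0.15, adjusted p 0.659, edgeR). Ptprc, encoding CD45, stood at −0.06.

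The transcription factors were the group without a negative median. Spi1, encoding PU.1, ranged from 1.59 to 3.20 CPM (median 2.05) in libraries labelled control and from 2.10 to 2.88 CPM (median 2.30) in libraries labelled cKO. These are 26 to 54 reads per library, and the log2 fold change was 0.15 (SE 0.18, adjusted p 0.782, edgeR). Irf8, its partner in myeloid gene control, stood at 0.12 (SE 0.15, adjusted p 0.788, edgeR), and its sign differed between lanes (−0.09 and 0.35). Sall1, which maintains microglial identity, stood at −0.12 (SE 0.08, adjusted p 0.548, edgeR). The secreted and enzymatic members, Hpgds (prostaglandin D synthase) and Olfml3, were both negative. Hpgds ranged from 5.86 to 10.1 CPM (median 9.10) and from 5.96 to 8.39 CPM (median 7.23), with −0.28 (SE 0.13, adjusted p 0.284, edgeR), and Olfml3 stood at −0.21.

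Per library, the summed level of the 34 members was 769.8, 774.2, 850.1, 777.1, 701.0 and 858.5 CPM in controls 1 to 6. In cKO 1 to 6 it was 693.7, 732.8, 668.9, 671.2, 688.9 and 674.7 CPM. The means were 788 ± 58.4 and 688 ± 23.9 CPM (SD, n = 6 each), a log2 ratio of −0.20. Controls 3 and 6 were highest, and control 5 was the one control within the cKO range, below cKO 2. In bulk tissue fewer microglia and less of these RNAs per microglial cell cannot be told apart.

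**Figure D3:**
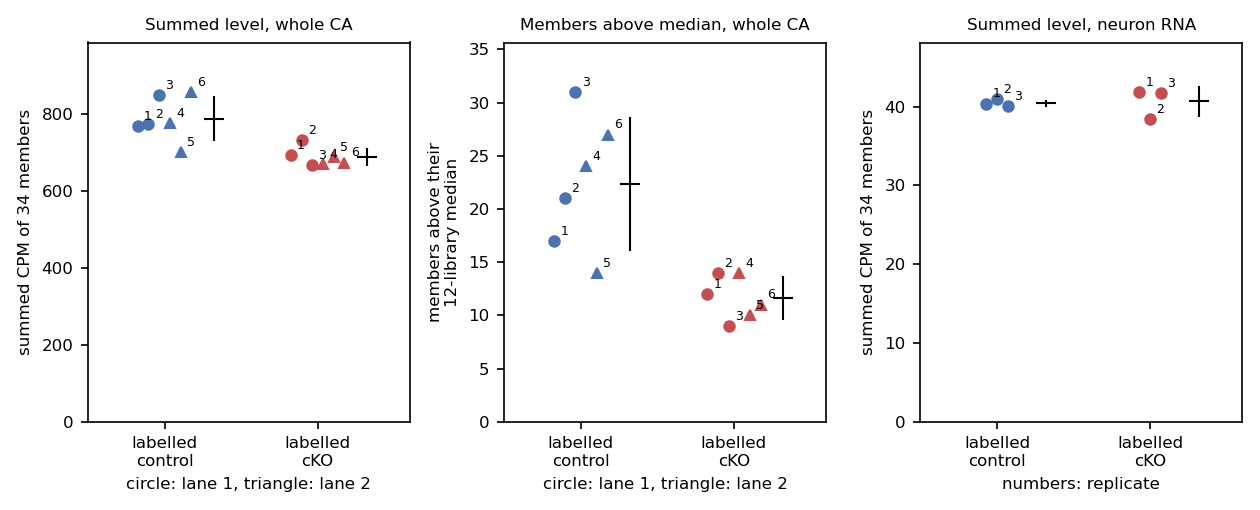
Summed CPM of the 34 microglial genes in each whole CA library (left) and neuron RNA library (right), and the number of members above their own 12-library median in each whole CA library (middle). Numbers mark replicates and black marks show the mean with SD; in the left panel control 5 (701.0 CPM) lies below cKO 2 (732.8 CPM), and the 2 neuron groups overlap.

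Some libraries had most members high or low within their own genotype. In control 3, 29 of 34 members lay above the median of the control libraries, whereas in control 5 only 5 did. In cKO 2, 25 of 34 lay above the median of the libraries labelled cKO. The other 4 controls had 13 to 21 members above, and the other 5 cKO libraries 13 to 18. Set against the median of all 12 libraries, between 14 and 31 members were above in the controls and between 9 and 14 in the libraries labelled cKO. Members of a library share its RNA, so the 29 negative members are not 29 independent observations.

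**Figure D4:**
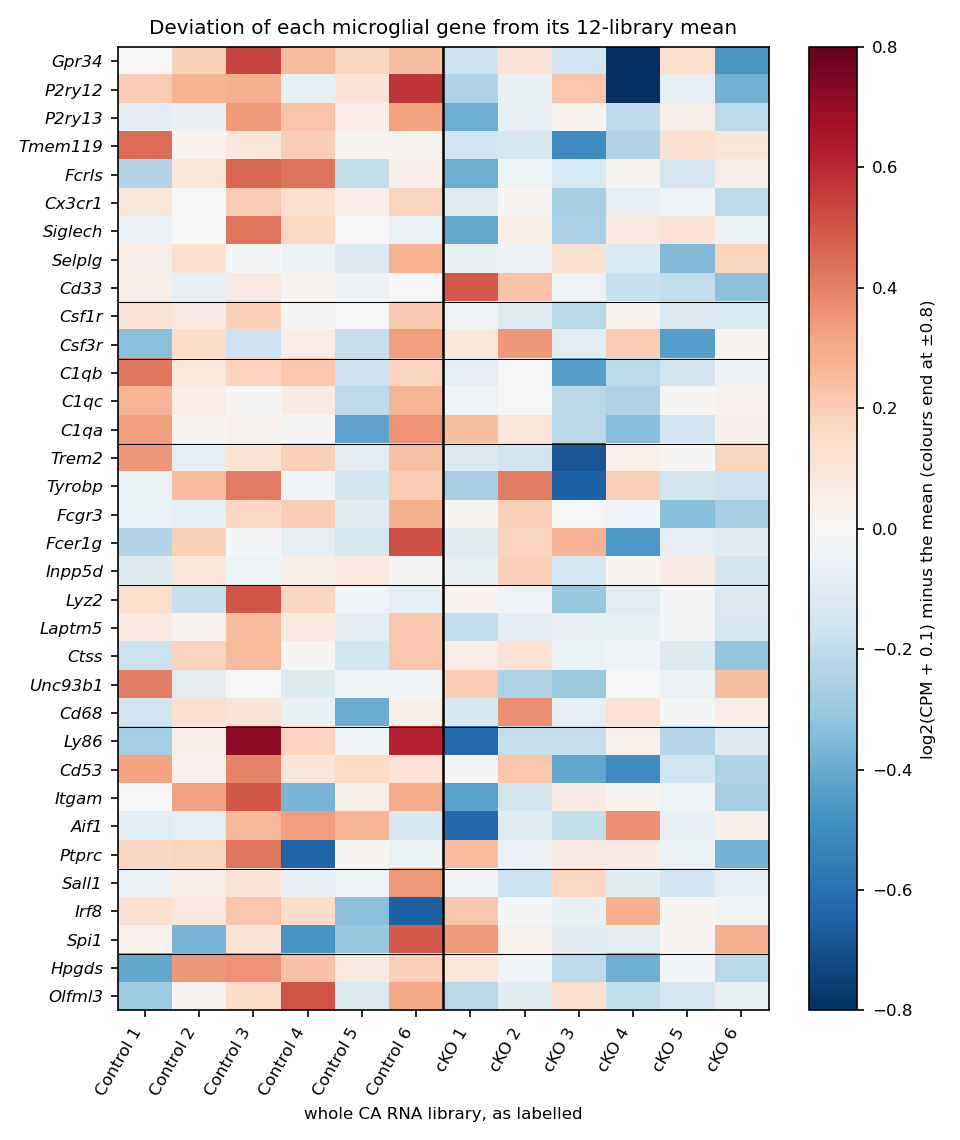
Deviation of log2(CPM + 0.1) of each microglial gene (rows, in the role order used above) from its mean over the 12 whole CA libraries (columns); red is above and blue below the mean. Controls 3 and 6 are red for most members. The libraries labelled cKO are more often blue than red, but each also holds red cells, as for Tyrobp and Cd68 in cKO 2 and Cd33 in cKO 1.

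The shift was seen in both lanes with 3 libraries of each genotype. The median of the members was −0.21 in lane 1 and −0.13 in lane 2, and 27 and 28 members were negative. Of the 34, 23 were lower in both lanes, 2 were higher in both (Cd68 and Spi1) and 9 changed sign. At an unadjusted p under 0.05, 11 members were lower in lane 1 (all genes 6.61%) and 9 in lane 2 (all genes 6.99%), and 0 were higher in either. The lanes did not weigh the same genes equally. P2ry12 stood at −0.27 in lane 1 and −0.63 in lane 2, while Tmem119 stood at −0.45 and −0.08 and Trem2 at −0.43 and −0.04. Cx3cr1 stood at −0.21 and −0.22. The differences between lanes were not tested.

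Neuron RNA was used to see how far these genes are measured outside the tissue as a whole. The 34 members summed to 40.5 ± 0.46 CPM over the neuron controls and 40.7 ± 1.96 CPM over the neuron cKO libraries (SD, n = 3 each). Over the control libraries every member was higher in whole CA RNA, with a median log2 ratio of 4.66 and a range of 1.13 (Hpgds) to 5.92 (Ly86). Among all genes 46.6% were higher there, and so were all 10 neuronal marker genes, with a median log2 ratio of 0.89. At least 8-fold ratios were found for 27 of 34 members and for 5.73% of all genes. Both materials were normalized separately and the neuron libraries held almost no mitochondrial reads (0.00814 to 0.0144%, against 3.41 to 7.05%), so these ratios compare shares of different RNA pools. The 7 members under 8-fold were Hpgds, Aif1, Cd68, Irf8, Sall1, Unc93b1 and Ptprc.

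In neuron RNA 33 members were tested, all but Spi1, and 0 were called by the edgeR test, against 2.75% of all genes. At an unadjusted p under 0.05, Fcrls was lower (−0.51, SE 0.21) and Inpp5d higher (0.45, SE 0.18), 2 of 33 where 17.2% of all genes passed in either direction. DESeq2 also called 0 members. The estimates were negative for 19 members and positive for 14, with a median of −0.08 and standard errors of 0.11 to 0.43. Cx3cr1 stood at 2.03, 2.19 and 1.93 CPM in controls 1 to 3 and at 2.16, 1.54 and 1.89 CPM in cKO 1 to 3. The 2 groups overlapped, with a log2 fold change of −0.14 (SE 0.16, adjusted p 0.698, edgeR). The counts behind these values were 2 to 310 reads per member and library. The median standard error was 0.23 and the smallest 0.11. A difference of the size of the whole CA median of −0.18 lies within 2 standard errors for every member here. It was therefore not detectable gene by gene with 3 libraries. Larger differences could pass at an unadjusted p for members with small errors, as at Inpp5d.

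The interaction contrast asked whether the genotype difference itself differed between materials. It called 0 of 34 members by the edgeR test, where 0.16% of all genes were called, and DESeq2 also called 0. At an unadjusted p under 0.05, 4 members passed (Inpp5d, Hpgds, Cd53 and Ctss, with 0.47, 0.48, 0.71 and 0.40), against 8.11% of all genes. That share counts both directions. All 4 were less negative or more positive in neuron RNA, and 721 of all 17523 genes passed in that direction. The estimates were positive for 23 of 34 members with a median of 0.12, against −0.0026 over all genes. A difference between the materials was therefore not detected for any single member after adjustment. For the members as a set it was not tested.

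The histone data came from sorted neuronal nuclei and gave few peaks at microglial starts. Of the 26 members with a start in the RefSeq table, 22 had no H3K4me3 peak within 1 kb of a start in any of the 8 libraries (84.6%), whereas 33.1% of all protein-coding genes had none. A peak in all 8 libraries was found for 3 members, Sall1, Olfml3 and Irf8 (11.5%), against 63.6% of all genes and 7 of 8 neuronal marker genes. Irf8 had 1436.8 ± 83.0 bp under peaks in libraries labelled control and 1406.0 ± 76.2 bp in libraries labelled cKO (SD, n = 4 each). Sall1 had 1504.2 ± 124.7 and 1509.2 ± 211.1 bp, and Olfml3 had 633.2 ± 57.2 and 625.0 ± 24.3 bp. The genotypes overlapped for all 3.

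Cd68 was the member with peaks in some libraries. It had an H3K4me3 peak in 2 of 4 libraries labelled control (0 to 319 bp) and in 4 of 4 labelled cKO (399 to 612 bp), so the groups did not overlap. Among all genes with a peak in at least 1 library, 1.89% did not overlap with the libraries labelled cKO longer. Its H3K4me1 length averaged 507.0 ± 276.7 bp in libraries labelled control and 1393.5 ± 316.5 bp in libraries labelled cKO (SD, n = 4 each). The groups did not overlap for H3K4me1 at Ptprc either, with 0 to 433 bp in libraries labelled control and 543 to 872 bp in libraries labelled cKO. These 2 were among 11 members with an H3K4me1 peak, and 6.58% of all genes with one were longer in cKO by that rule. For H3K27ac and H3K9ac it held for 0 members. Both genes were chosen for mention after their values were seen, and the peak lengths were not tested. The gene Eif4a1 begins or ends within 1 kb of Cd68, and stood at 127.2 ± 6.24 CPM in neuron RNA of libraries labelled control, so a peak there cannot be assigned to Cd68 alone.

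**Figure D5:**
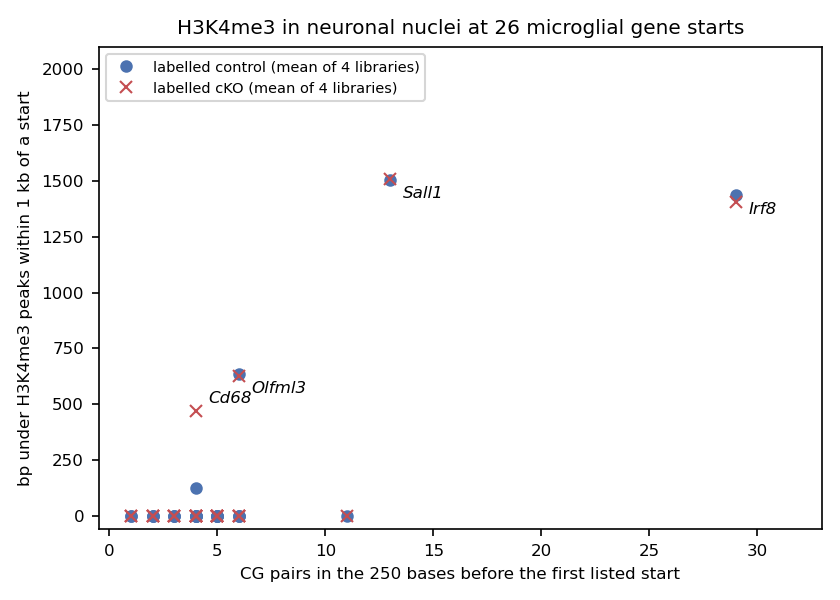
Number of CG pairs in the 250 bases before the first listed start (x axis) and mean length under H3K4me3 peaks within 1 kb of a start (y axis, bp) for 26 microglial genes in neuronal nuclei; circles are libraries labelled control and crosses those labelled cKO (4 each). The 22 members at 0 bp have 1 to 11 CG pairs, and Irf8 with 29 and Sall1 with 13 lie highest. For members with several listed starts, the CG count and the peak length may come from different starts.

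Of the 4 members with an H3K4me3 peak in at least 1 library, the first listed start of Irf8 held 29 CG pairs, Sall1 13, Olfml3 6 and Cd68 4, whereas the 22 without a peak held 1 to 11. Further listed starts held 25 and 30 for Sall1 and 8 for Irf8. Peak length was taken from the start with most, which may differ from the first listed start. Of the 7 members with the smaller ratios of whole CA to neuron RNA, 6 have a listed start, and 3 of these had such a peak (Irf8, Sall1 and Cd68) while Hpgds, Aif1 and Ptprc had none. Olfml3 had a peak and a log2 ratio of 4.42. The other marks were read at the same 26 starts. A peak in every library was found for 4 members with H3K4me1 (61.8% of all genes), for 2 with H3K27ac (56.7%) and for 2 with H3K9ac (61.0%). No peak in any library was found for 57.7% of the members with H3K4me1, 69.2% with H3K27ac and 73.1% with H3K9ac, against 28.3%, 35.2% and 32.2% of all genes. The H3K4me1 count of 4 depended on the setting. It was 9 (all genes 66.6%) within 2000 bp and 0 (all genes 2.53%) at a −log10 q of at least 5.

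Other genes of the microglial lineage, from a further list of 25, were also mostly negative in whole CA RNA. That list was likewise chosen with earlier results known and was measured in the same 12 libraries, so it is not independent of the members. Of the 22 tested in whole CA RNA, 18 were negative with a median of −0.16. At an unadjusted p under 0.05, 5 were lower, where 8.52% of all genes were. The edgeR test called 0, against 4.17% of all genes in either direction. The summed level of the 25 was 713 ± 26.5 CPM in libraries labelled control and 694 ± 37.1 CPM in libraries labelled cKO (SD, n = 6 each). The ranges overlapped, at 681.8 to 752.6 and 655.5 to 734.4 CPM. Those with the smallest p were Dock2 (−0.36, edgeR adjusted p 0.0629) and Vsir (−0.22, edgeR adjusted p 0.0679). In neuron RNA 1 of the 21 tested was called, against 2.75% of all genes. It was P2ry6, a receptor for UDP, at −1.19 (SE 0.20, adjusted p 0.0131, edgeR).

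Genes linked to microglial activation did not move as a group. Of 14 tested of 25, 9 were negative with a median of −0.06, and 1 was called, against 4.17% of all genes in either direction. Ctsz, encoding cathepsin Z, rose by 0.30 (SE 0.07, adjusted p 0.0257, edgeR), from 27.5 ± 2.83 to 33.8 ± 2.20 CPM (SD, n = 6 each). The inflammatory genes Il1b, Tnf, Ccl3 and Ccl4 and the activation markers Cst7, Itgax and Clec7a did not reach the level needed for a test. The complement genes downstream of C1q gave 0 calls of 12 tested (all genes 4.17%, so that a list of this size says little), with 8 negative and a median of −0.06, and C3 stood at 0.05 (edgeR adjusted p 0.937). Toll-like receptor and interferon genes gave 0 calls of 15, against the same 4.17%, with a median of −0.04.

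Of 14 genes acting with CSF1R or TREM2, 10 were negative with a median of −0.07, and 1 was called, which is near the 4.17% of all genes. Cebpa, a myeloid transcription factor also made by other cells, fell from 7.92 ± 1.21 to 5.35 ± 0.61 CPM (SD, n = 6 each; −0.57, SE 0.12, edgeR adjusted p 0.00861). It was lower in neuron RNA as well, at −1.37 (edgeR adjusted p 0.00334), where it stood at 7.07 ± 0.84 CPM in libraries labelled control. Il34, the neuronal ligand of CSF1R, stood at −0.23 (edgeR adjusted p 0.278) and Csf1, the other ligand, at −0.05. Of 11 signals between neurons and microglia, 1 was called higher and 1 lower, against 4.17% of all genes in either direction. Smad3 was the higher (0.26, edgeR adjusted p 0.0216) and Tgfbr1, a TGF-beta receptor, the lower (−0.36, edgeR adjusted p 0.0284). Cx3cl1, the ligand of CX3CR1, stood at 0.12 (edgeR adjusted p 0.207).

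Markers of other cells were set beside the shift. Over all genes the edgeR test called 4.17% in whole CA RNA and 2.75% in neuron RNA, in either direction. Of 10 border macrophage genes, 4 were tested and 0 called. Their summed level was 17.8 to 23.4 CPM in libraries labelled control and 18.6 to 23.98 CPM in libraries labelled cKO, most of it Stab1, and Lyve1, Pf4, Cbr2, Ms4a7, Cd209f and Siglec1 lay under the filter. Blood leukocyte markers summed to 0.53 to 1.30 and 0.42 to 1.03 CPM, and 0 of 12 could be tested. Astrocyte genes were negative for 8 of 10 with a median of −0.12, and Aqp4 was lower (−0.38, SE 0.08, edgeR adjusted p 0.0122). Endothelial and mural genes were negative for 7 of 10 (median −0.08) and oligodendrocyte genes for 3 of 11 (median 0.06), with 0 calls in either. Neuronal genes had a median of −0.0007, with Neurod6 (−1.78) and Map2 (−0.32) lower. Fibroblast and meningeal genes were negative for 7 of 9 with a median of −0.28, and 1 was called, the matrix proteoglycan Dcn (−2.25). Their summed level was 174.0 to 197.0 CPM in libraries labelled control and 118.3 to 142.8 CPM in libraries labelled cKO, and without Dcn 108.4 to 128.4 and 103.5 to 131.8 CPM. Choroid plexus and ependymal genes were negative for 7 of 7 with a median of −0.12 (7 of 7 in lane 1 and 1 of 7 in lane 2), and 1 was called, Kl (−1.04). Their summed level was 51.7 to 57.7 and 32.7 to 43.8 CPM, and without Kl 23.99 to 29.2 and 17.7 to 33.2 CPM. Dcn and Kl were also called in neuron RNA. In neuron RNA Ogn (−3.45) and S100b (−0.86) were also lower. The part of the other cell types in the microglial shift was not tested.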

How the data were processed

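RNA-seq measured 12 whole CA and 6 neuron libraries, and ChIP-seq 30 libraries of sorted neuronal nuclei. For each library the authors deposited unnormalized read counts by Ensembl gene. RNA was extracted with Trizol and prepared with the TruSeq RNA v2 kit, per the labels' protocols, and the counting tool and its strand setting are not given in the sources used here. Builds mm10 and GRCm38, SAMtools and MACS2 are named per the submitters' processing notes. Peaks were called per library with MACS 2.1.0.20140616 or, for H3K4me3, 2.1.1.20160309, at a q-value cutoff of 0.1, and the deposited lists give peak length and −log10 q, per the file headers.

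Members and lists were chosen with earlier results of these data known. Symbols came from the supplied table, which matched 98.9% of whole CA and 99.3% of neuron IDs. Counts were tested with edgeR 4.0.16 (R 4.3.3; quasi-likelihood, TMM, filterByExpr on genotype), separately in each material, and the interaction over all 18 RNA libraries. Benjamini-Hochberg adjustment ran over all genes tested, and genes were called under 0.05. CPM is the count over library total times TMM factor. The standard error is the log2 fold change over the root of the F statistic. The scripts were tested on simulated data. Promoters and starts are RefSeq GRCm38.p6; 8 members have no entry. Peak length was summed within 1 kb of each start, and the start with most was used. The alternatives tried were DESeq2 1.42.0, RLE factors, scaling by library size only, testing without a filter or with a minimum mean count of 10, an adjusted p under 0.1, a replicate block, the lane as a covariate, each lane alone, and leaving out each library. For peaks they were windows of 500 and 2000 bp and a −log10 q of at least 5. Values were given per library for members called or among the 12 with the smallest p, and for Cx3cr1, P2ry12, Tmem119, Csf1r, the C1q chains, Aif1, Trem2 and Spi1. Cd68 and the host genes were added after their values were seen. Of other lists, up to 4 called genes were named, and further genes there were named after seeing the values. No 2 libraries of a group were copies (chi-square per degree of freedom of at least 4.81).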

Additional observations from a re-analysis of the deposited data

Results flagged for a closer look

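In 70 groups of 6 whole CA libraries (34 members and their sum, in each genotype), 2 groups held a library far from the others. Chance gives about 1 in 20 such groups. Both concerned control replicate 1, in lane 1. Tmem119 stood at 25.13 CPM there against 18.73 to 21.11 CPM in the other 5 control libraries. Unc93b1 stood at 14.48 CPM against 10.09 to 10.88 CPM. Without control replicate 1 the log2 fold change of Unc93b1 changed sign to 0.041. Over the leave-one-out fits, that of Tmem119 ran from −0.31 to −0.19.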

How the results depend on the processing

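The median log2 fold change of the members in whole CA RNA stayed between −0.21 and −0.13 under every alternative run, and the log2 ratio of the summed level between −0.22 and −0.17. The count of members called, 1 as reported, depended on the setting. It was 5 at an adjusted p under 0.1, 5 with DESeq2, 4 with the replicate block and 3 with no filter on low counts, all lower. It was 0 with library size only, 0 with replicates 1 to 3 and 0 with replicates 4 to 6, where fewer libraries entered. Leaving out each library gave 0 to 2. Among all genes, 3.8% were lower at an adjusted p under 0.1. For the other alternatives the share of all genes called is not given here, so an excess cannot be read from these counts. Calls arose for Ly86 without control 1, P2ry12 without control 4 or cKO 3, C1qb without control 5, Cd53 without cKO 2, Csf1r without cKO 4 and Gpr34 without cKO 5. In all, 7 members were called under some setting. Cx3cr1 was not called with no filter (adjusted p 0.103), the block (0.0632) or library size only (0.0831); the cause was not tested. Neuron RNA and the interaction gave 0 calls throughout, and the 3 members with an H3K4me3 peak in every library stayed 3.

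Peak counts for the other marks and the list sums without Dcn or Kl were also added after seeing the data. H3K27ac gave 2 or 3 members with a peak in every library and 1 at a −log10 q of at least 5, and H3K9ac 2 and 1. Other counts added after seeing the data were the members lower at an unadjusted p under 0.05, 9 to 14 in whole CA RNA, and the members with a negative estimate, 27 to 31. In the main fit, 8.52% of all genes were lower by the first rule and 50.8% had a negative estimate. With no filter the neuron count of lower members was 2, and with DESeq2 or the block 0.

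Same-numbered whole CA libraries correlated at −0.07 to 0.25 and neuron libraries at −0.17 to 0.38 in their deviations from the group means. Not every library correlated best with its own number. Replicate 4 of whole CA RNA and replicate 2 of neuron RNA did so in both genotypes. These correlations cannot settle whether the numbers pair the libraries.

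Signs changed for members near 0, and also for Siglech (−0.16), Fcgr3 (−0.14) and Irf8 (0.12). Selplg, at −0.09, kept its sign. Cd33 turned to −0.0077 with the replicate block and −0.23 with replicates 4 to 6 (and without cKO 1 or cKO 2). With replicates 1 to 3, Fcer1g turned to 0.13, Fcgr3 to 0.055, Irf8 to −0.090 and Inpp5d to 0.022. With replicates 4 to 6, Siglech turned to 0.015, Ptprc to 0.090, Csf3r to −0.13 and Unc93b1 to 0.12. Over the fits without 1 library, Csf3r ran from −0.021 to 0.13, Unc93b1 from −0.097 to 0.041, Ptprc from −0.16 to 0.038, Inpp5d from −0.063 to 0.0085, Fcer1g from −0.17 to 0.015 and Cd33 from −0.099 to 0.078. In neuron RNA Csf1r ran from −0.040 to 0.13, Aqp4 from −0.077 to 0.28 and P2ry12 from −0.38 to 0.10. Of the 29 members lower in whole CA RNA, 23 kept their sign under all 21 alternatives; the causes of the other changes were not tested.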
